A study of Mus musculus with 74 samples.

Results

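Transcripts of 8 secreted matrix genes, Tnc, Tgfbi, Smoc2, Spon1, Fbln2, Sparc, Postn and Fn1, were followed through 74 single cells of the mouse pro-epicardial organ. The genes were chosen by a rule that lists them by name, out of 30323 genes in the count table, and that looks at how they divide the cells and correlate. They were therefore selected on values of these same cells. Their levels are given as a description without a test, and their differences between cells support no further statement. The series holds a single group without treatment or control. Cells were sorted by flow cytometry from pro-epicardial organs of C57BL/6 embryos at embryonic day 9.5, and every embryo carried the Tbx18Cre driver and the mTmG reporter. Cre under Tbx18 switches the membrane reporter permanently, so all cells share a history of Tbx18 activity, and cells without it were not compared. No embryo or litter is named, so the 74 cells count as 1 sample, errors are standard deviations (SD) over cells, and no p-value is given.

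Matricellular proteins are secreted into the matrix but act on cells more than they bear load: they bind integrins, syndecans and growth factors and change how cells adhere and migrate. Fibronectin and collagens form the network to which they attach. In heart development such proteins are known from endocardial cushions, the epicardium and the mesenchyme at the venous pole, where cells leave epithelia and take up a migratory state. The pro-epicardial organ is a mesothelial outgrowth at the inflow of the heart, next to the mesenchyme of the septum transversum and to the muscle of the sinus venosus.

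Cells were divided by both class genes of the rule, the LIM homeobox gene Lhx9 and the cardiac actin gene Actc1. A cell was muscle-like at 500 CPM (counts scaled to 1e+06 per cell) of Actc1 or more, Lhx9-positive at 5 counts of Lhx9 or more below that level of Actc1, and mesenchymal with neither. This gave 23 muscle-like, 32 Lhx9-positive and 19 mesenchymal cells. The Actc1 values nearest the limit were 420.02 and 260.3 CPM below it and 530.04 and 559.7 CPM above it. The Lhx9 values nearest its limit were 2 and 15 counts. A pair of cells passed both limits and stayed with the muscle-like cells.

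The class names were read against marker lists. These lists were chosen with earlier results of these data known, so they give the names no independent support. Of 12 mesothelial markers, 12 were detected (5 counts or more) in at least 50% of Lhx9-positive cells, against 6 in each of the other classes. Of 12 mesenchymal markers, 12 reached that share in mesenchymal cells and 7 in each other class. By mean, the mesothelial marker Krt7 was no higher in Lhx9-positive (13.2 CPM) than in mesenchymal cells (14.5 CPM). The mesenchymal marker Pdgfra was no higher in mesenchymal (123 CPM) than in Lhx9-positive cells (129 CPM). Of 12 muscle markers, 10 reached it in muscle-like cells and 3 in each other class. By class means, 5 of 10 tested (detected in at least 10% of cells) were 2-fold higher in mesenchymal than Lhx9-positive cells, and 0 lower. The shares of all such genes were 10.3% and 7.00%. The summed muscle markers had a median of 5993 CPM (1584 to 46695) in muscle-like cells, 1170 CPM (185 to 4347) in mesenchymal cells and 875 CPM (203 to 2984) in Lhx9-positive cells. Markers of other tissues were mostly absent: at most 2 of 8 endothelial, 1 of 8 blood, 0 of 8 hepatic and 0 of 6 neural crest markers reached 50% of the cells of a class. Cldn5, Hnf4a, Foxa2 and Foxd3 held no count, and Cdh5 and Emcn were detected in no cell. The exceptions were Pecam1 (62 cells), Tek (52), the globin gene Hba-a1 (30), Alb (20), and Erbb3 (14) and Sox10 (8), the last of which was detected in Lhx9-positive cells alone. Summed blood markers had medians of 1.63 CPM in mesenchymal, 2.97 in Lhx9-positive and 9.41 in muscle-like cells, endothelial markers 63.3, 67.8 and 47.1, hepatic markers 0, 0 and 3.71, and neural crest markers 0, 5.05 and 0.690, and their part in the levels below was not tested. The median total was 849718 counts per cell (216177 to 2618538), with 1088057 in mesenchymal, 810674.5 in Lhx9-positive and 826085 in muscle-like cells. No pair of cells held identical values.

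Upstream sequence is shown for Tnc and Tgfbi, both highest in mesenchymal cells, and for Postn, a fasciclin-domain relative of Tgfbi. RefSeq promoter windows (GRCm38.p6) were at hand for 5 of the 8 genes, Tnc, Tgfbi, Fbln2, Sparc and Postn, and not for Smoc2, Spon1 and Fn1. For Tnc, Tgfbi and Postn a window lay upstream of every start site in GENCODE M21, and only those bases are printed, 5′ to 3′. Capitals mark matches, on either strand, to 7 short motifs: the TATA box TATAAA, the GC box GGGCGG, the E-box CANNTG, the SMAD element CAGAC, the TEAD element GGAATG, the AP-1 element TGANTCA and the GATA element AGATAA. No matches overlapped in these windows.
Tnc, chr4:64047016-64047265, minus strand: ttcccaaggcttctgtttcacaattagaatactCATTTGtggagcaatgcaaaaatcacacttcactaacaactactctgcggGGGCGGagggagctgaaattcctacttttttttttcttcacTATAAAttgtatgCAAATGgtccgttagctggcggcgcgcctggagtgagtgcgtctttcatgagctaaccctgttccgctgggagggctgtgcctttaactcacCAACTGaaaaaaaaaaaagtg
Tgfbi, chr13:56609336-56609522, plus strand: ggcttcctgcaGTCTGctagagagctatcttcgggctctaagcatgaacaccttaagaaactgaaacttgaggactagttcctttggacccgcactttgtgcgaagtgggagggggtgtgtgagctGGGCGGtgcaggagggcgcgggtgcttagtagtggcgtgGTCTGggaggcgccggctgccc
Postn, chr3:54360857-54361106, plus strand: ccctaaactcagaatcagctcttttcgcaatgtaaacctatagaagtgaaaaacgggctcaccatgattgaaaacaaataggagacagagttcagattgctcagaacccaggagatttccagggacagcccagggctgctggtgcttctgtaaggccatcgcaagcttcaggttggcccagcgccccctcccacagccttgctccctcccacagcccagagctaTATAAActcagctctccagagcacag

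The Tnc window held 3 E-boxes, 1 GC box and 1 TATA box, the last beginning 126 bases before the end of the window. The Tgfbi window, of 187 bases, held 2 SMAD elements on the reverse strand and 1 GC box, and the Postn window held 1 TATA box beginning 26 bases before its end. The GC box was the only one of the 7 motifs present in both the Tnc and the Tgfbi window. Over all 32851 windows of the table cut to 250 bases, 66.2% held an E-box, 32.7% a GC box and 12.4% a TATA box, and cut to 187 bases, 34.2% held the SMAD element and 22.2% a GC box. The TEAD, AP-1 and GATA letters were in none of the 3 windows, against 12.6%, 6.75% and 9.99% of all windows at 250 bases. GC content was 44.8% for Tnc, 59.4% for Tgfbi and 52.0% for Postn, beside medians over all windows of 52.4% at 250 bases and 51.3% at 187.

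The 8 genes differed in how they lay over the cells. Tnc and Tgfbi were highest in mesenchymal cells. Smoc2 and Spon1 were lowest in Lhx9-positive cells, intermediate in mesenchymal cells and highest in muscle-like cells. Fbln2 was highest in Lhx9-positive and lowest in muscle-like cells. Postn was low, detected most often in Lhx9-positive cells and lowest in muscle-like cells, while its mean was slightly higher in mesenchymal (53.7 CPM) than in Lhx9-positive cells (45.7 CPM). Sparc and Fn1 were present in all 74 cells and differed between classes by less than 2-fold. Smoc2 thus ran with Spon1 over the classes rather than with Tnc and Tgfbi. The plot of the genes by class shows each cell.

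**Figure D1:**
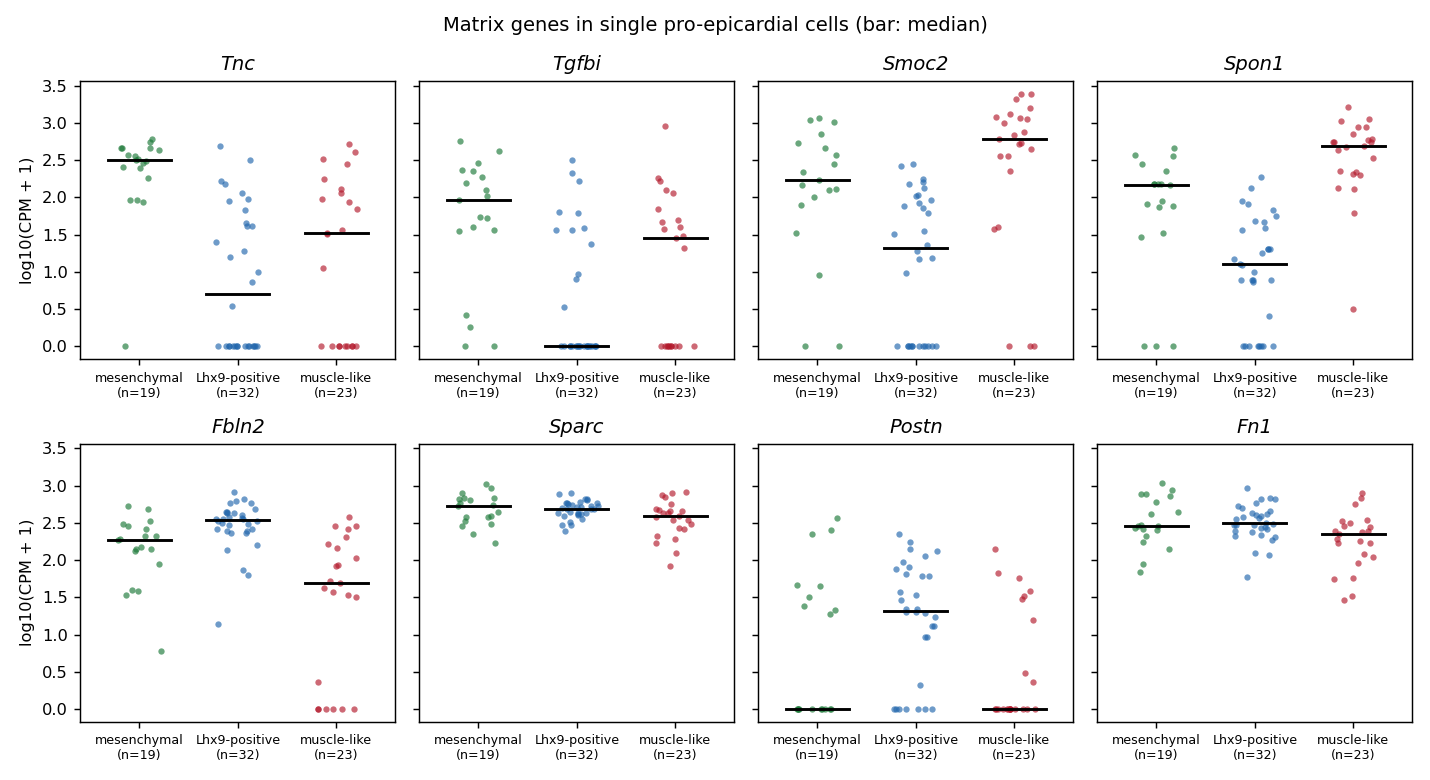
Level of each gene as log10(CPM + 1) in each cell (points), by class (mesenchymal, n = 19; Lhx9-positive, n = 32; muscle-like, n = 23); bars are medians. Tnc medians were 319, 4.48 and 32.1 CPM in that order, whereas Spon1 medians were 146, 11.6 and 489 CPM.

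Between mesenchymal and Lhx9-positive cells, 4 of the 8 genes were 2-fold or more higher by the ratio of class means, Tnc, Tgfbi, Smoc2 and Spon1, and none was lower. Of 11511 genes detected in at least 10% of cells, 10.3% were higher and 7.00% lower by the same measure. The median log2 ratio was 1.21 over the 8 genes and 0.06 over all genes. From mesenchymal to muscle-like cells, Smoc2 and Spon1 were higher and Tnc, Fbln2 and Postn lower, where 7.65% of all genes were higher and 8.44% lower. In muscle-like relative to Lhx9-positive cells, Tgfbi, Smoc2 and Spon1 were higher and Fbln2 and Postn lower, where 9.68% of all genes were higher and 7.97% lower. The rule that listed the genes used these contrasts, so the counts are descriptions. Smoc2 and Spon1 had the most extreme ratios of the 8, 13.9-fold and 17.9-fold in muscle-like over Lhx9-positive cells, with 99.1% and 99.4% of all genes at lower ratios.

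**Figure D2:**
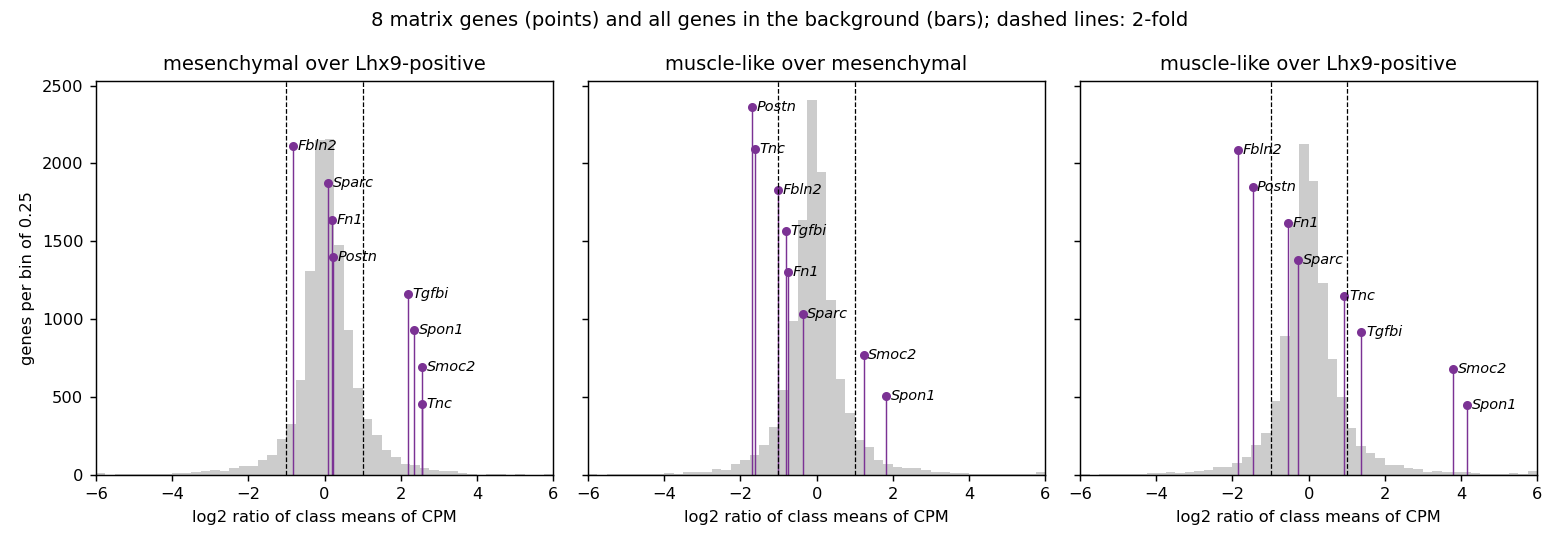
Log2 ratio of class means of CPM for the 8 genes (points on stems, whose height only separates the names) over the distribution of all 11511 genes (bars, genes per bin of 0.25; ratios beyond 6 are in the end bins; genes at 0 in a class are not drawn); dashed lines mark 2-fold. Smoc2 and Spon1 lie at 3.80 and 4.16 in the right panel, and Fbln2 at -1.84.

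Tnc encodes tenascin C, a large oligomeric glycoprotein that loosens cell adhesion to fibronectin (ENSMUSG00000028364, GRCm38 chromosome 4, 63959785 to 64047015, minus strand). In mesenchymal cells its lowest, median and highest values were 0, 319 and 601 CPM. In Lhx9-positive cells they were 0, 4.48 and 483 CPM, and in muscle-like cells 0, 32.1 and 527 CPM. The ranges overlapped, but the interquartile range of mesenchymal cells (212 to 445 CPM) lay above that of Lhx9-positive (0 to 50.0) and muscle-like cells (0 to 120.4). A single Lhx9-positive cell of 32 and 3 muscle-like cells of 23 exceeded the mesenchymal median. Tnc was detected in 18 of 19 mesenchymal cells (94.7%, exact 95% interval 74.0% to 99.9%), 16 of 32 Lhx9-positive cells (50.0%, 31.9% to 68.1%) and 14 of 23 muscle-like cells (60.9%, 38.5% to 80.3%). Thinning to 354002 counts left out 8 cells with fewer. In the cells that remained the shares were 94.4% of 18, 39.3% of 28 and 60.0% of 20 cells. Later shares at thinned depth are over these cells, so they differ from the full shares in the cells counted as well as in depth. Its mean was 309 ± 166 CPM (SD, n = 19 cells) in mesenchymal cells, 5.90-fold the 52.3 ± 104 of Lhx9-positive cells and 3.08-fold the 100.2 ± 147 of muscle-like cells. The ratio of muscle-like to Lhx9-positive cells was 1.91-fold, just under the limit, and passed it at a log2 ratio of 1.07 without the 2 cells past both limits. Exons of Tnc overlap an antisense gene, 8030451A03Rik, which is not among the genes counted. The sources used here do not say whether counting used strand, so reads of both cannot be told apart.

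Tgfbi encodes a fasciclin-domain protein, induced by TGF-beta, that links integrins to collagen (ENSMUSG00000035493, chromosome 13, 56609523 to 56639562, plus strand). Its lowest, median and highest values were 0, 91.8 and 567 CPM in mesenchymal cells. In Lhx9-positive cells they were 0, 0 and 320.3 CPM, and 20 of the 32 cells held no count. In muscle-like cells they were 0, 27.6 and 913 CPM. The ranges overlapped throughout, and 3 of 32 Lhx9-positive and 5 of 23 muscle-like cells exceeded the mesenchymal median. Detection was 15 of 19 (78.9%, 54.4% to 93.9%), 11 of 32 (34.4%, 18.6% to 53.2%) and 13 of 23 cells (56.5%, 34.5% to 76.8%). At thinned depth it was 77.8% of 18, 35.7% of 28 and 65.0% of 20 cells. The mean of mesenchymal cells, 138 ± 155 CPM, was 4.55-fold the 30.2 ± 71.1 of Lhx9-positive cells. The mean of muscle-like cells, 78.9 ± 190 CPM, rested on 1 cell at 913 CPM, which also held 25 counts of Lhx9. Without the 2 cells past both limits, muscle-like cells were below mesenchymal cells at a log2 ratio of -1.68, past 2-fold, in place of -0.80. The higher mean of muscle-like over Lhx9-positive cells, 2.61-fold, was then no longer past 2-fold, at a log2 ratio of 0.51.

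Smoc2 encodes a calcium-binding secreted protein of the SPARC family that modulates growth factor signals (ENSMUSG00000023886, chromosome 17, 14279506 to 14404790, plus strand). Its lowest, median and highest values were 0, 19.9 and 279.6 CPM in Lhx9-positive cells. They were 0, 172 and 1152 CPM in mesenchymal cells and 0, 598 and 2466 CPM in muscle-like cells. No Lhx9-positive cell reached the muscle-like median, whereas 4 of 19 mesenchymal cells did. Smoc2 was detected in 19 of 32 Lhx9-positive cells (59.4%, 40.6% to 76.3%), 16 of 19 mesenchymal cells (84.2%, 60.4% to 96.6%) and 20 of 23 muscle-like cells (87.0%, 66.4% to 97.2%). At thinned depth the shares were 67.9% (19 of 28 cells), 83.3% (15 of 18) and 85.0% (17 of 20). Means rose from 59.2 ± 77.5 through 349 ± 381 to 822 ± 755 CPM, so mesenchymal cells stood 5.89-fold above Lhx9-positive cells and muscle-like cells 2.36-fold above mesenchymal cells. The SD of mesenchymal cells exceeded their mean, and of the 10 cells with the most Smoc2, 8 were muscle-like and 2 mesenchymal.

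Spon1 encodes F-spondin, a secreted protein with thrombospondin repeats best known from axon guidance (ENSMUSG00000038156, chromosome 7, 113765998 to 114043370, plus strand). Lhx9-positive cells ran from 0 through a median of 11.6 to 187 CPM. Mesenchymal cells ran from 0 through 146 to 457 CPM, and muscle-like cells from 2.22 through 489 to 1649 CPM. No cell of the other classes exceeded the muscle-like median, and the 10 cells with the most Spon1 were all muscle-like. Spon1 was detected in 18 of 32 Lhx9-positive (56.2%, 37.7% to 73.6%), 16 of 19 mesenchymal (84.2%, 60.4% to 96.6%) and 22 of 23 muscle-like cells (95.7%, 78.1% to 99.9%), and at thinned depth in 13 of 28, 15 of 18 and 19 of 20 cells. Its means were 29.1 ± 42.5, 148 ± 134 and 522 ± 394 CPM, a 5.09-fold step from Lhx9-positive to mesenchymal cells and a further 3.53-fold step to muscle-like cells.

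Fbln2 encodes fibulin-2, a calcium-binding glycoprotein of elastic fibres and basement membranes (ENSMUSG00000064080, chromosome 6, 91212455 to 91272540, plus strand). All 32 Lhx9-positive cells held it, from 12.7 through a median of 345 to 819.8 CPM. All 19 mesenchymal cells held it too, from 4.94 through 186 to 537 CPM. In muscle-like cells it was detected in 16 of 23 (69.6%, 47.1% to 86.8%), from 0 through 48.9 to 377 CPM, and 6 cells held no count. One muscle-like cell, which was also past the Lhx9 limit, exceeded the Lhx9-positive median. Means were 349.9 ± 178, 198 ± 145 and 97.7 ± 113 CPM. Lhx9-positive cells were 3.58-fold above muscle-like cells and 1.77-fold above mesenchymal cells. The step from mesenchymal to muscle-like cells was 2.02-fold, at the limit, and fell below it under several settings, for example a log2 ratio of -0.93 with Actc1 at 250 CPM.

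Postn encodes periostin, a fasciclin-domain protein like Tgfbi that marks cushion mesenchyme and later fibroblasts (ENSMUSG00000027750, chromosome 3, 54361109 to 54391037, plus strand). Over all cells it had the lowest mean of the 8 genes, 38.7 CPM, but in Lhx9-positive cells its mean exceeded those of Tgfbi and Spon1. Lhx9-positive cells ran from 0 through a median of 20.0 to 223 CPM, and 23 of 32 were positive (71.9%, 53.3% to 86.3%; 64.3% at thinned depth). Mesenchymal cells ran from 0 through 0 to 362 CPM, with 9 of 19 positive (47.4%, 24.4% to 71.1%; 38.9% thinned), and muscle-like cells from 0 through 0 to 139 CPM, with 7 of 23 positive (30.4%, 13.2% to 52.9%; 30.0% thinned). The mean of mesenchymal cells, 53.7 ± 104 CPM, was nevertheless above that of Lhx9-positive cells, 45.7 ± 56.6, although 10 of the 19 held no count. The 3 highest mesenchymal cells held 220.3, 256 and 362 CPM, against at most 223 CPM in Lhx9-positive cells. Without the highest cell of each class the log2 ratio of mesenchymal to Lhx9-positive cells went from 0.23 to -0.13, with thinned counts it was also -0.13, and by the mean of log2(CPM + 1) the difference was -1.22. Muscle-like cells, at 16.5 ± 33.1 CPM, were 3.26-fold and 2.77-fold lower than mesenchymal and Lhx9-positive cells.

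Sparc encodes osteonectin, a collagen-binding protein, and Fn1 encodes fibronectin, the integrin ligand on which the matrix assembles. Sparc (ENSMUSG00000018593, chromosome 11, 55394500 to 55423183, minus strand) ran from 166 through 533 to 1044 CPM in mesenchymal cells, from 242 through 491 to 785 CPM in Lhx9-positive cells and from 82.4 through 387 to 818 CPM in muscle-like cells. Its means, 528 ± 240, 496 ± 130.1 and 409 ± 208 CPM, differed by less than the SD of the cells. Fn1 (ENSMUSG00000026193, chromosome 1, 71585520 to 71653200, minus strand) ran from 67.3 through 287 to 1073 CPM, from 58.2 through 311 to 927 CPM and from 28.2 through 226 to 798 CPM in the same order. Its means were 419 ± 293, 363 ± 189 and 249 ± 198 CPM, at most 1.68-fold apart. With Actc1 at 1000 CPM, Fn1 passed 2-fold, at log2 ratios of -1.25 and -1.09 for muscle-like over mesenchymal and over Lhx9-positive cells. Fn1 shares exonic bases with an antisense gene, Apol7d, also not among the genes counted, with the same limit on strand as for Tnc.

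The plot of all 74 cells places these genes between Lhx9 and Actc1. Fbln2, Sparc and Fn1 filled nearly the whole width, Tnc and Tgfbi were densest in the middle, and Smoc2 and Spon1 on the right.

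**Figure D3:**
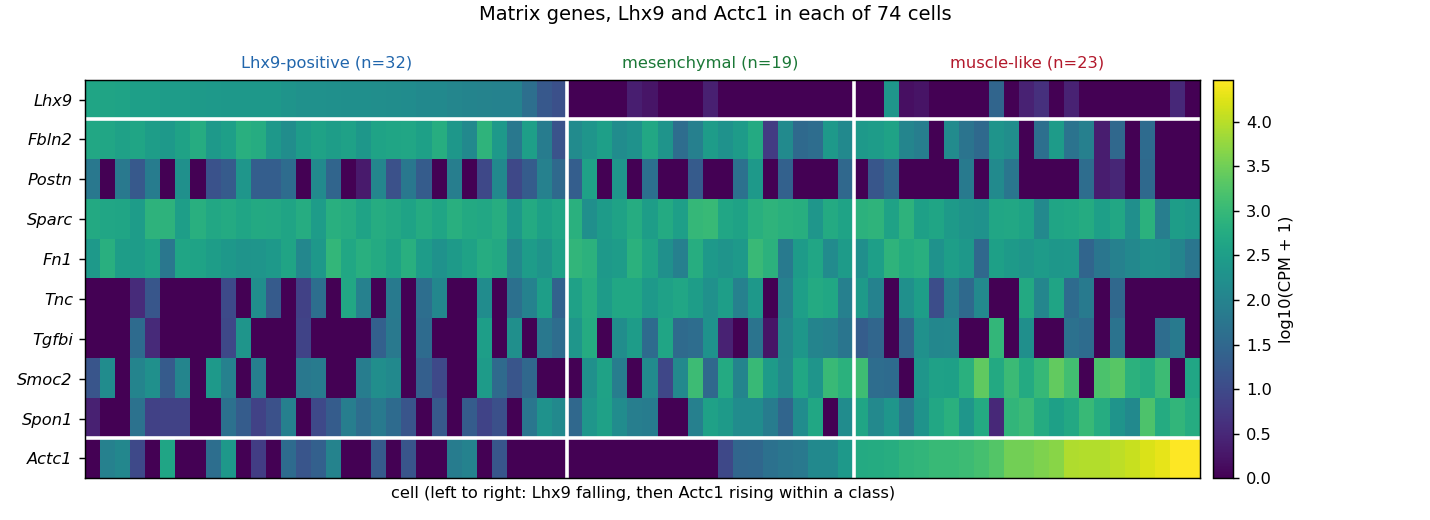
Colour gives log10(CPM + 1) of each gene (rows) in each of the 74 cells (columns), ordered by falling Lhx9 within Lhx9-positive cells (n = 32) and by rising Actc1 within mesenchymal (n = 19) and muscle-like cells (n = 23). Tnc was at 0 in 15 Lhx9-positive, 1 mesenchymal and 9 muscle-like cells.

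Levels were compared between genes per kilobase of exon. Over all cells the order of medians, in CPM per kb, was Sparc 120.2, Fbln2 34.3, Fn1 24.5, Smoc2 16.6, Spon1 7.41, Tnc 5.50, Tgfbi 3.77 and Postn 1.39. The interquartile range of Sparc (91.3 to 154) stood clear of that of Fbln2 (10.1 to 54.9), and each later neighbour overlapped the next. With the longest annotated transcript in place of all exons the order was the same, but Sparc (198), Smoc2 (29.1), Spon1 (12.49) and Postn (2.31) were over 1.5 times higher. The order differed by class. In mesenchymal cells Tnc came directly after Sparc, at 41.1 (interquartile range 27.2 to 57.2) against 141 CPM per kb (94.5 to 178), and its range overlapped that of Fbln2 (29.3, from 17.2 to 42.8). In Lhx9-positive cells Sparc (129.6), Fbln2 (54.2) and Fn1 (26.6) stood apart from one another without overlap of interquartile ranges, Smoc2 (2.87) lay below them all, and Tgfbi was at 0. In muscle-like cells the interquartile range of Smoc2 (41.5 to 168, median 86.0) overlapped that of Sparc (70.7 to 125, median 102), and Spon1 followed at 47.1 CPM per kb.

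Among the 19 mesenchymal and 21 muscle-like cells without Lhx9, the genes shifted along Actc1. Tnc averaged 311 ± 157 CPM in 14 cells below 50 CPM of Actc1, 302 ± 209.6 in 5 cells from 50 to 500, 181 ± 167 in 12 cells from 500 to 5000 and 15.1 ± 24.9 in 9 cells at 5000 or more. It was detected in 3 of these 9 cells, at no more than 69.1 CPM. Tgfbi averaged 144 ± 178, 121 ± 66.7, 55.2 ± 70.4 and 26.5 ± 26.6 CPM over the same steps. Its medians, 45.4, 103, 23.8 and 36.6 CPM, did not fall steadily. Fbln2 averaged 225 ± 152, 120.2 ± 91.7, 122 ± 108 and 22.6 ± 30.5 CPM, and Fn1 481 ± 310, 245 ± 146, 296 ± 173 and 116 ± 68.9 CPM. Smoc2 took the opposite course to Tnc, at 288 ± 374, 519 ± 386, 867 ± 838 and 881 ± 711 CPM, as did Spon1, at 145 ± 122, 157 ± 181, 470.2 ± 315 and 682 ± 462 CPM. Spon1 was detected in all 9 cells of highest Actc1 and Smoc2 in 7 of them. Median totals were 773078.5, 1276563, 846318.5 and 808142 counts over the 4 steps, and median numbers of genes with a count 9179.5, 9700, 9294.5 and 9084. Within muscle-like cells Tnc also went with the number of genes found (Spearman rho 0.68, n = 23), and the part of that number in the fall of Tnc was not tested. The summed level of the 12 muscle markers moved with the steps, from a median of 836 CPM to 19765 CPM.

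**Figure D4:**
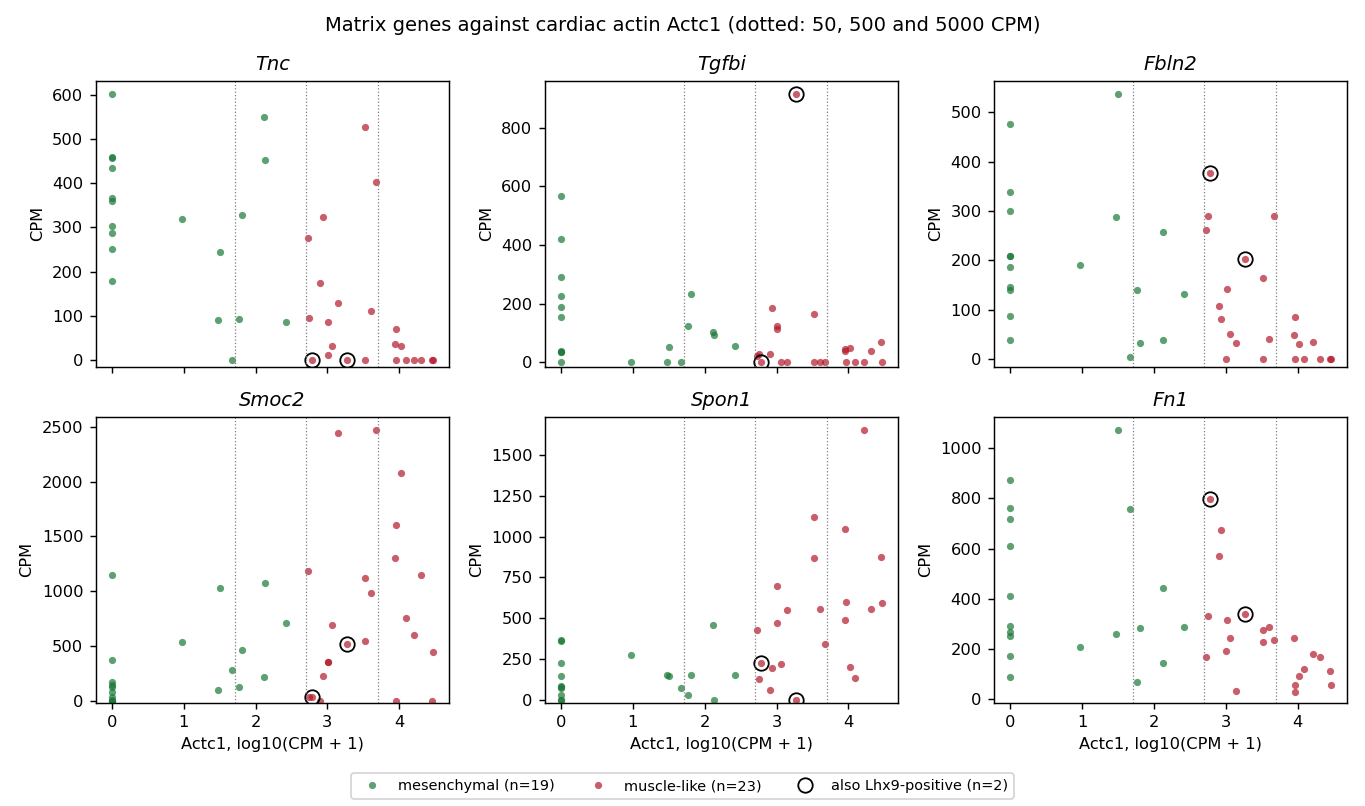
CPM of 6 of the genes against log10(CPM + 1) of Actc1 in mesenchymal (n = 19) and muscle-like cells (n = 23); dotted lines mark 50, 500 and 5000 CPM, and rings mark the 2 cells also past the Lhx9 limit, which the means in the text leave out. At 5000 CPM of Actc1 or more, Tnc stays at or below 69.1 CPM whereas Spon1 runs from 133 to 1649 CPM.

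The 2 cells with both class genes did not resemble each other. The first, with 1866 CPM of Actc1 and 25 counts of Lhx9, held Tgfbi at 913, Smoc2 at 522, Spon1 at 2.22 and Fbln2 at 203 CPM. The second, with 613 CPM of Actc1 and 61 counts of Lhx9, held Tgfbi at 0, Smoc2 at 36.3, Spon1 at 225, Fbln2 at 377 and Fn1 at 798 CPM. Tnc was at 0 in both. Within the 32 Lhx9-positive cells, Tnc fell as Lhx9 rose (rho -0.45), as did Spon1 (-0.38), and Fbln2 rose (0.38). In the same cells Tnc also fell as Actc1 rose (rho -0.57), where Actc1 had a median of 2.76 CPM. Within mesenchymal cells Smoc2 rose with Actc1 (rho 0.54, n = 19), although Actc1 was at most 260.3 CPM there. Its median in these cells was 0, so many of them were tied in that correlation. These correlations are over cells of 1 sample that share a denominator, the total count. Among mesenchymal cells, the 14 with 5 or more counts of the LIM homeobox gene Lhx2 held Tnc at 334 ± 178 and Smoc2 at 308 ± 366 CPM, and the 5 without it held 238 ± 109 and 463 ± 443 CPM.

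Over all 74 cells, 2 of the 28 pairs of genes had a Spearman rho of 0.4 or more and 1 had -0.4 or less, with a median of 0.03. Tnc and Tgfbi correlated at 0.48 and kept the sign inside each class, at 0.55 in mesenchymal, 0.33 in Lhx9-positive and 0.21 in muscle-like cells. Smoc2 and Spon1 correlated at 0.46 over all cells but at 0.19, -0.18 and 0.02 inside the same classes. The correlation of Spon1 with Fbln2 was -0.55 over all cells, and 0.20, -0.15 and -0.37 within classes. Within muscle-like cells Fbln2 went with Fn1 (0.60) and with Sparc (0.53), whereas these pairs were at 0.00 and -0.20 in mesenchymal and 0.09 and -0.05 in Lhx9-positive cells. In muscle-like cells Fbln2, Fn1 and Sparc each fell as Actc1 rose (rho -0.67, -0.63 and -0.36). The part of Actc1 in these pairs was not tested. Smoc2 with Tgfbi was 0.07 over all cells, and -0.42 in mesenchymal, 0.22 in Lhx9-positive and -0.36 in muscle-like cells. Correlations of the 8 genes with the total count ran from -0.07 to 0.23 over all cells. In muscle-like cells the total correlated with Tgfbi at 0.56, Sparc at 0.48 and Tnc at 0.38, and with the other genes from -0.23 to 0.00. The part of the total in the correlation of Tnc with Tgfbi there was not tested.

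**Figure D5:**
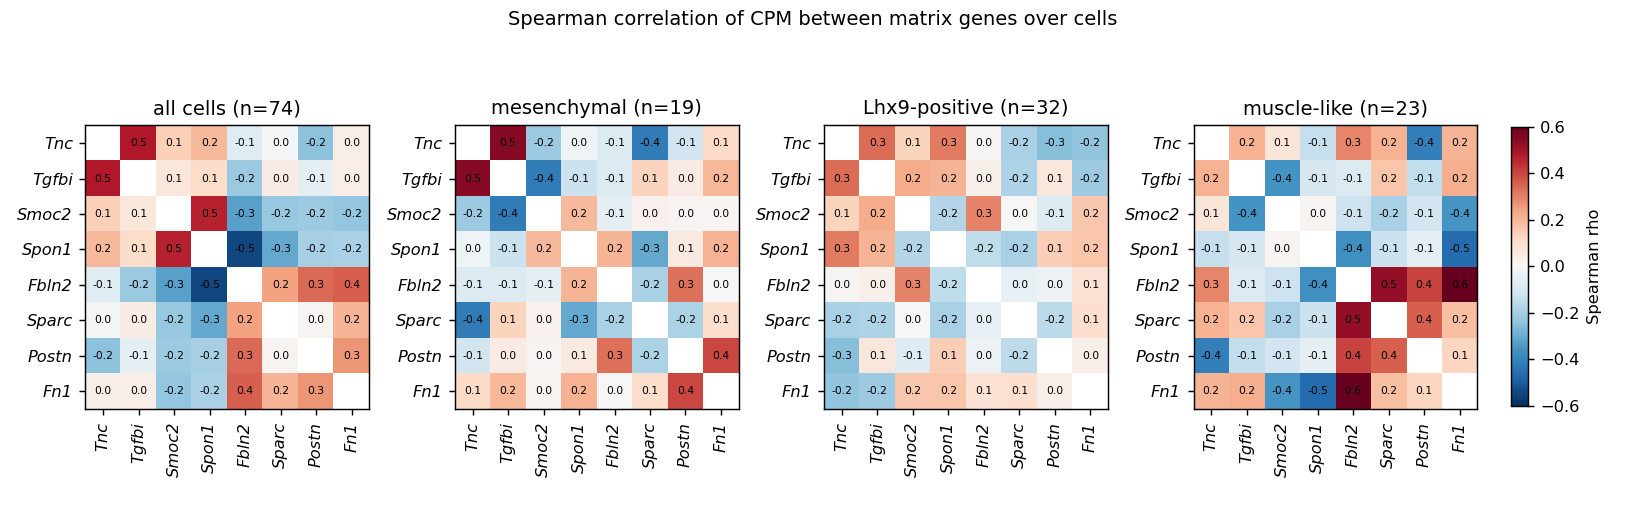
Spearman correlation of CPM for the 28 pairs of genes over all cells (n = 74) and within each class (n = 19, 32 and 23); numbers are rho to 1 decimal, and the diagonal is blank. Tnc with Tgfbi is positive in every panel (0.48, 0.55, 0.33, 0.21), and Smoc2 with Spon1 is near 0 in muscle-like cells (0.02).

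Detection together followed the same lines. Of the 74 cells, 33 held both Tnc and Tgfbi, 15 only Tnc, 6 only Tgfbi and 20 none of the pair; independent detection would give 25.3 cells with both. Within classes the numbers with both were 15 against 14.2 in mesenchymal, 8 against 5.50 in Lhx9-positive and 10 against 7.91 in muscle-like cells. Smoc2 and Spon1 were detected together in 44 cells, against 41.6, and within classes in 14, 11 and 19 cells, against 13.5, 10.7 and 19.1. Cells expressed a median of 6 of the 8 genes (3 to 8), with 7 in mesenchymal cells. All 8 were detected in 11 cells, of which 7 were mesenchymal, 3 Lhx9-positive and 1 muscle-like.

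The genes most like each of the 3 named first differed. Over 74 cells and 10345 genes detected in at least 20% of them, those closest to Tnc were Mfap4 (rho 0.71), Tmem119 (0.70), Twist2 (0.65), Shisa3 (0.64) and Cyp1b1 (0.64). Those closest to Tgfbi were Emilin1 (0.61), Nnat (0.61), Asb4 (0.60), Mfap2 (0.59) and Pdgfrb (0.57), and to Smoc2 Myl4 (0.64), Cap2 (0.61), Pdlim7 (0.61), Hcn4 (0.59) and Acta2 (0.59). Tgfbi stood at rank 50 for Tnc and Spon1 at rank 49 for Smoc2, whereas Smoc2 stood at rank 2396 for Tnc. Within the 19 mesenchymal cells the nearest genes given here were others: Ccdc127 (0.82), Macf1 (0.81), Gm27029 (0.79), Rcc2 (0.77) and Mtss1l (0.75) for Tnc, Mavs (0.79), Sdc3 (0.76), Inka1 (0.74), Rbm43 (0.74) and Sec61g (0.73) for Tgfbi, and Pfdn2 (0.83), Pgam2 (0.79), Filip1 (0.76) and Ogg1 (0.75) for Smoc2. These ranks are over 19 cells and 10521 genes and were not tested.

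Other matricellular and elastic fibre genes were read from a list of 38, of which 19 were detected in at least 10% of cells. Every count from here on is over the tested genes of a list and is read beside the shares over all genes, 10.3% higher and 7.00% lower in mesenchymal over Lhx9-positive, 7.65% and 8.44% in muscle-like over mesenchymal, and 9.68% and 7.97% in muscle-like over Lhx9-positive cells. The corresponding median log2 ratios over all genes were 0.06, -0.08 and -0.03, and those of the 19 genes 0.25, -0.59 and 0.27. Mesenchymal cells held 6 of the 19 at 2-fold or more over Lhx9-positive cells, beside 10.3% of all genes: the microfibril genes Mfap2, Mfap4 and Emilin1, the thrombospondin Thbs3, the hemicentin Hmcn1 and the CCN gene Ccn4. They held 5 at 2-fold or more below, beside 7.00% of all genes: Thbs1, Thbs4, Spon2, Efemp1 and Ccn2. Ccn2, the connective tissue growth factor, had means of 66.8, 543 and 179 CPM in mesenchymal, Lhx9-positive and muscle-like cells, and Emilin1 251, 85.0 and 99.5 CPM. Spon2, the relative of Spon1, ran the other way from it, at 42.0, 92.8 and 30.9 CPM. From mesenchymal to muscle-like cells Thbs4, Ccn2 and Matn2 were higher and Thbs1, Smoc1, Spock1, Hmcn1, Ccn4, Emilin1 and Mfap4 lower. Thbs4, Matn2 and Smoc1 rested on few cells, each detected in 2 of 19 mesenchymal and in 6, 5 and 3 of 23 muscle-like cells. So did Spock1, detected in 4 of 19 mesenchymal and 0 of 23 muscle-like cells, and Thbs1, in 5 and 1. The Thbs4 mean of muscle-like cells was 92.7 ± 268 CPM, and the Smoc1 mean of mesenchymal cells 6.31 ± 21.9 CPM. Muscle-like cells held Thbs4 above and Thbs1, Smoc1, Spock1, Spon2, Efemp1 and Ccn2 below Lhx9-positive cells. By median CPM per kb the most abundant of the list were Ccn1 (307), Mfap2 (243) and Fbln1 (70.9). Comp, Tnn, Ccn5, Spp1, Ccn6, Spock2 and Igfbp7 were detected in no cell.

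Of 19 receptor genes, 17 passed the same filter. Itga9, whose integrin binds tenascin C, averaged 134 CPM in mesenchymal and 137 CPM in muscle-like cells against 15.2 CPM in Lhx9-positive cells, and Itgb5 averaged 113 CPM in mesenchymal against 32.5 CPM in Lhx9-positive cells. The reverse held for Itga4, a fibronectin and Vcam1 receptor (218 CPM in Lhx9-positive, 20.4 in mesenchymal cells), Sdc4, a syndecan that binds fibronectin (92.8 and 10.1), and Itga3, Cd44 and Egfr. So 2 of the 17 were higher, near the 10.3% of all genes, and 5 lower, beside 7.00% of all genes, in mesenchymal than in Lhx9-positive cells. The median log2 ratios of the list, 0.06, -0.11 and -0.07 for the 3 contrasts, were close to those over all genes. Itgb3 and Cd44 were higher, and Itga8 and Itgb5 lower, in muscle-like than in mesenchymal cells. Against Lhx9-positive cells, muscle-like cells held Itga9, Itgb3 and Cd44 higher and Itga3, Itga4, Itga5, Itga8, Sdc4 and Egfr lower. Itgb1, the common beta chain, was in all 74 cells at 483, 519 and 496 CPM in mesenchymal, Lhx9-positive and muscle-like cells, and led the list per kb (124), before Sdc1 (20.6) and Itgb5 (10.8). Itgb6 was detected in no cell.

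A further list held genes of collagens, other matrix proteins and their processing, of which 26 were tested. In mesenchymal cells 11 were higher than in Lhx9-positive cells, beside 10.3% of all genes: Col1a1, Col3a1, Col5a1, Col5a2, Col6a1, Col6a2, Bgn, Lum, Vcan, Nid1 and Pcolce. Lum rested on few cells, detected in 2 of 19 mesenchymal and 5 of 32 Lhx9-positive cells, with a mesenchymal mean of 11.6 ± 41.0 CPM. Col1a1, the main collagen I chain, averaged 242, 42.0 and 129 CPM in mesenchymal, Lhx9-positive and muscle-like cells. Dcn, the decorin gene, was the single lower one, at 7.86 against 89.6 CPM. From mesenchymal to muscle-like cells Col6a1 and Nid2 were higher and Col3a1, Col5a1, Col5a2, Lox, Bgn, Lum and Nid1 lower. Lox also rested on few cells, detected in 2 of 19 mesenchymal and 3 of 23 muscle-like cells. Its means there were 3.07 ± 9.07 and 1.31 ± 3.82 CPM. Over Lhx9-positive cells, muscle-like cells held Col1a1, Col6a1, Col6a2, Vcan and Pcolce higher and Dcn, Lum and Serpinh1 lower. The median log2 ratios of the list were 0.64, -0.53 and 0.06 for the 3 contrasts. P4ha1 (39.4), Pcolce (28.5) and Loxl2 (22.2) had the highest medians in CPM per kb.

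Of 9 TGF-beta genes tested, mesenchymal cells held Tgfbr2, Tgfbr3, Smad7 and Tgfb1i1 higher and Tgfb3 lower than Lhx9-positive cells, beside 10.3% and 7.00% of all genes. The median log2 ratios of the list were 0.67, -0.40 and -0.35. The coreceptor Tgfbr3 averaged 57.1 CPM in mesenchymal cells, 6.62 in Lhx9-positive and 1.06 in muscle-like cells. Tgfbr2 and Tgfbr3 were lower in muscle-like than in mesenchymal cells, and against Lhx9-positive cells Tgfb1i1 was higher and Tgfb3, Tgfbr2 and Tgfbr3 lower there. The ligand Tgfb2 was in all 74 cells at 419, 330 and 299 CPM and led the list per kb (56.9), before Tgfb1i1 (13.4) and Tgfbr1 (7.79). Of 9 protease and inhibitor genes tested, Mmp2, Mmp11, Timp3 and Adamts1 were higher in mesenchymal than in Lhx9-positive cells and none was lower, beside the same shares. The median log2 ratios of this list were 0.77, -0.43 and 0.62. Mmp2, a gelatinase, averaged 203 CPM in mesenchymal, 44.2 in Lhx9-positive and 54.2 in muscle-like cells. Mmp15 and Timp3 were higher and Mmp2, Timp1 and Adamts9 lower in muscle-like than in mesenchymal cells, and over Lhx9-positive cells Timp3 was higher and Timp1 and Adamts9 lower. Mmp14 (29.8), Timp1 (20.3) and Adamts1 (18.2) led per kb, and Mmp9 was detected in no cell.

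Genes that answer to dissociation were followed on the side. Of 8 immediate early and heat shock genes tested, Egr1 was higher and Atf3, Hspa1a and Hspa1b lower in mesenchymal than in Lhx9-positive cells, and Jun, in all 74 cells, averaged 493, 544 and 507 CPM. Per kb the highest medians were those of Jun (146), Ier2 (120.1) and Fos (37.5). Atf3, Hspa1a and Hspa1b were higher and Egr1 lower in muscle-like than in mesenchymal cells, and Egr1 was higher there than in Lhx9-positive cells. Hspa1a rested on few cells, detected in 1 of 19 mesenchymal, 5 of 32 Lhx9-positive and 3 of 23 muscle-like cells. The Egr1 mean of mesenchymal cells was 57.5 ± 151 CPM. The summed level of the 9 listed genes had medians of 780 (208 to 3220), 1046 (265 to 1678) and 1128 CPM (226 to 2132) in mesenchymal, Lhx9-positive and muscle-like cells, and its part in the levels of the matrix genes was not tested.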

How the data were processed

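Single pro-epicardial cells were profiled with SMART-Seq v4 and Nextera XT, per the labels' protocols. The unit is the estimated count of reads, deposited by the authors per gene as whole numbers. kallisto and the build hg38 are named in the submitters' processing notes, without a version of the tool, although all identifiers are mouse Ensembl genes; rounding and summing to genes are not described there. GENCODE M21 matched 29936 of 30323 identifiers. Counts were scaled to CPM by each cell's total, and to CPM per kb by union exon length. No cell was left out, and no doublet caller was run. Intervals are exact (Clopper-Pearson) and cover counting of cells only; reads without molecular identifiers are not independent molecules. Higher or lower means 2-fold or more between class means, by size alone. The members and the 13 gene lists were chosen with earlier results of these data known. Genes were named by rule: the 8 members, the 5 genes most alike to Tnc, Tgfbi and Smoc2, and of each matrix, receptor, pathway and stress list those past 2-fold, the 3 highest per kb and those never detected. A few genes that this rule or the lists name are not reported here. Marker lists are given by counts and summed levels, with examples picked after seeing the values. The alternatives tried other thresholds, scaling, depth (thinned to 354002 counts, which left out 8 cells) and summaries. The tools were scran 1.30.0 under R 4.3.3, and pandas 2.3.3, numpy 2.4.6, SciPy 1.17.1 and matplotlib 3.10.9 under Python 3.11.15.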

Additional observations from a re-analysis of the deposited data

How the results depend on the processing

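No paired analysis was possible because the series has 1 group and no comparison between samples. Of the ratios of single genes between classes, recomputed under each alternative, 242 stayed on the same side of 2-fold, 9 fell below it and 13 newly passed it, and none that was past it changed sign. Those that fell below were Fbln2 in muscle-like over mesenchymal cells (5 settings) and Tgfbi in muscle-like over Lhx9-positive cells (4 settings). Those that passed were Tgfbi in muscle-like over mesenchymal cells (4 settings, log2 -2.09 to -1.47), Tnc in muscle-like over Lhx9-positive cells (5 settings, 1.07 to 1.14), Fn1 (2) and, by the mean of log2(CPM + 1), Fbln2 (-1.08) and Postn (-1.22, from 0.23) in mesenchymal over Lhx9-positive cells. By that mean 2 genes in place of 0 were lower in mesenchymal than in Lhx9-positive cells; the other counts of genes past 2-fold kept within 1.5 times. Over all genes with any count the shares past 2-fold were 17.4% higher and 21.2% lower in mesenchymal over Lhx9-positive, 17.5% and 17.3% in muscle-like over mesenchymal, and 17.6% and 21.6% in muscle-like over Lhx9-positive cells, since genes seen in few cells enter. Of recomputed correlations over all cells, 80 stayed within a margin set by rho and the number of cells, and 4 did not. By Pearson's r of log2(CPM + 1), Smoc2 with Spon1 was 0.34 in place of a rho of 0.46. Tnc with Fbln2 was 0.13 in place of -0.07, and Fbln2 with Sparc 0.40 in place of 0.24. The causes were not tested. Among detection shares, 70 stayed within the exact interval and 2 did not. Among levels per kb, 7 stayed within the SD over cells and 1 did not. With 19 to 32 cells a class, detection is known only roughly (24.4% to 71.1% for Postn in mesenchymal cells), and 1 cell can move a mean, as for Tgfbi. The summed-count alternative was added after the data were seen.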
